A study of Sus scrofa with 599 samples.

Results

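Mesenteric adipose (MAD) was compared with retroperitoneal adipose (RAD) in female Bama miniature pigs kept on a normal diet, the group labelled NC. Members were the libraries and Hi-C samples whose names carry these labels and match a deposited sample, which gave 12 MAD and 12 RAD samples of RNA and as many of Hi-C. These 48 samples were a small part of the 599 of the series, which also holds other depots and pigs after weight gain (WG) and weight loss (WL). MAD is the fat between the sheets of the mesentery that carry vessels, nerves and lymph to the gut. RAD lies behind the peritoneum on the back wall of the abdomen, next to the kidneys. Pigs of the NC group were adults, the labels name no allele or agent beyond the diet, and both depots came from the same group of animals. WG pigs, also adult females, were fed a high-fat diet, and WL pigs had first been fed that diet and were then restricted in calories. These WG and WL animals were other pigs than those of NC, so their values are independent of the NC samples. The labels give replicate numbers but do not tie a number to a pig, so p-values measure the spread between samples.

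Fat depots form from mesenchyme at different places of the trunk, and their stromal cells keep the transcription factors of that place into adult life. HOX genes lie in clusters in the order in which they are used from head to tail, while NKX, HAND, FOXF and TCF factors pattern the mesenchyme of gut and viscera. In Hi-C, chromatin splits into an active compartment A and an inactive compartment B. The A-B index scores each bin of 20 kb on that axis, without a unit, and is positive in A.

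The start region of NKX2-3 (ENSSSCG00000010538), a factor of visceral mesenchyme, is shown first, because it had the largest log2 fold change among the factors named here and a called difference in the A-B index at its start. It is the 300 bases from 250 before to 50 after the RefSeq start in Sscrofa11.1, read 5′ to 3′ on the plus strand at chr14:110720134-110720433, with no part in capitals.
NKX2-3: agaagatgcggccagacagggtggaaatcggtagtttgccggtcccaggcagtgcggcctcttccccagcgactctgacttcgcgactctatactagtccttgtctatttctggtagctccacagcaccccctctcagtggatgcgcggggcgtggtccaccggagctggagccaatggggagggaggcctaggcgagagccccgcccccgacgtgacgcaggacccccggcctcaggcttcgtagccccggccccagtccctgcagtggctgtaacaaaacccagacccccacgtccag
The window held 20 CG pairs, and the median of 13093 promoters of that length held 19. The letters TATAAA were on neither strand of it and were in 8.95% of all promoters. A match is a description of the letters and says nothing of binding in these samples.

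Protein-coding genes (PCGs) took unequal shares of the summed TPM, and the RNA libraries formed 2 sets around 88%. Of the MAD libraries, 10 were above 88% and 2 below (5 and 7), and of the RAD libraries 6 were above and 6 below (1, 2, 5, 7, 8 and 12). Libraries above the limit held 12.8 to 21.1 M estimated counts on PCGs, and those below it 8.01 to 10.8 M. The set was therefore a term in the main fits of expression, and the count of differentially expressed genes (DEGs) is also given within each set. Mitochondria-encoded genes split the set above 88% further. They summed to 19774 to 44967 TPM in MAD libraries 3, 6 and 10 and RAD libraries 4, 6 and 10. In every other library they held at least 130185 TPM. This split was not a term in the fits, and it bears on the TPM ranges given here. MAD libraries 1 and 5 stood apart in muscle genes, with summed TPM over the smooth muscle list of 32388 and 9279, against 1514 to 5597 in the other MAD libraries. ADIPOQ, the adipocyte hormone adiponectin, was also lowest in these MAD libraries, at 1510 and 1934 TPM, while every library of either depot had at least 1510 TPM. Counts of DEGs, counts of several lists and values of some genes are given without libraries 1 and 5 too. Values of the other genes are given with all libraries only. RAD library 7 stood apart in apolipoproteins, which liver and gut epithelium make: APOB was at 260 TPM there and at or below 34.2 TPM in all others, and APOA1 at 503 against 54.2 to 244 TPM. Without it 285 DEGs were called, against 303 with all libraries.

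DEGs were PCGs that differed by more than 1.5-fold at an adjusted p below 0.05 in edgeR's quasi-likelihood test. Of 13742 PCGs tested, 238 (1.73%) were higher in MAD and 65 (0.473%) were higher in RAD, so that 303 (2.2%) were called in all. An unadjusted p under 0.05 in edgeR was found for 1664 of the 13742. The log2 fold changes below are MAD against RAD, with their standard error (SE), so that a positive value means higher in MAD. The SE of a fold change was computed as its absolute value divided by the square root of the test's F value. The median over all PCGs tested was -0.01. TPM ranges of the 12 and 12 libraries did not overlap for 23 PCGs higher in MAD (0.167%) and 13 higher in RAD (0.0946%). The fit over the 16 libraries above 88% called 115 DEGs, of which 109 were among the 303, and the fit over the 8 below 88% called 24, of which 22 were. Without MAD library 5, 180 DEGs were called, and 166 without libraries 1 and 5, of which 160 were among the 303. With the replicate number as a block beside the set term, 191 were called, 125 higher in MAD and 66 in RAD. Of these, 156 were among the 303, and named genes that lost their call are listed in the last section. Values from bulk tissue cannot tell fewer cells of a type from less RNA per cell.

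Of the 16 tested members of the list of visceral patterning factors, 8 were higher in MAD and 1, TBX18, was higher in RAD, with a median log2 fold change of 0.78. The 8 were NKX2-3, NKX3-2, HAND2, TCF21, FOXF1, GATA6, MEIS1 and MEIS2. Without MAD libraries 1 and 5 these counts were 5 and 1. NKX2-3, a homeobox factor of gut and spleen mesenchyme, lies at chr14:110720384-110724002 on the plus strand. It ranged from 3.18 to 24.5 TPM in MAD with a median of 9.77, and was listed at 0 in 10 of the 12 RAD libraries and at no more than 0.0585 TPM in the others. Every MAD library was thus far above every RAD library, and the log2 fold change of 9.41 (SE 0.50) was the highest of the genes named here (edgeR adjusted p = 2.96e-12). As RAD was at or near 0, the size of this fold change is less certain than its direction. TCF21, a factor of visceral mesoderm and of fat progenitors, had 2.1, 7.97 and 22.1 TPM as the lowest, median and highest value in MAD and 0, 0.408 and 0.839 TPM in RAD. Its log2 fold change was 4.58 (SE 0.48, edgeR adjusted p = 8.91e-07), again with no overlap of the depots.

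HAND2, which acts in heart, limb and gut mesenchyme, ranged from 1.49 to 85.4 TPM in MAD with a median of 4.74, and from 0 to 1.17 TPM in RAD with a median of 0.458. Its log2 fold change was 4.75 (SE 0.76, edgeR adjusted p = 0.000292), and 3.15 without MAD libraries 1 and 5 (adjusted p = 0.00312). The depots did not overlap, but the MAD libraries were spread widely: 3 of them, numbers 1, 5 and 6, lay between 28.5 and 85.4 TPM and the others at or below 6.49. NKX3-2, a homeobox factor of the axial skeleton and gut mesoderm, had a median of 2.4 TPM in MAD and was at or below 0.257 TPM in RAD, where its median was 0. MAD library 7 was the only one to fall within that range, at 0.124 TPM (log2 fold change 5.64, SE 0.70, edgeR adjusted p = 1.08e-05). FOXF1, a target of hedgehog signals in splanchnic mesoderm, ranged from 2.64 to 24.9 TPM in MAD and from 0.64 to 1.97 TPM in RAD, without overlap, with a log2 fold change of 2.66 (SE 0.36, edgeR adjusted p = 4.37e-05).

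Less known depot factors showed as wide a gap at lower levels. PRDM6, a chromatin factor of smooth muscle, ranged from 1.21 to 6.32 TPM in MAD and from 0 to 0.216 TPM in RAD (log2 fold change 5.32, SE 0.44, edgeR adjusted p = 1.01e-08). ISL2, a LIM homeobox factor known from motor neurons, ranged from 0.651 to 2.67 TPM in MAD and stayed at or below 0.059 TPM in RAD (log2 fold change 6.22, SE 0.48, edgeR adjusted p = 2.69e-09). ISL2, which is in no list, and MEIS2 were chosen after their values were seen. Neither PRDM6 nor ISL2 overlapped between depots. MEIS1 and MEIS2, cofactors of HOX proteins, were expressed in both depots. MEIS1 had medians of 61 TPM in MAD and 31.8 TPM in RAD (log2 fold change 0.79, SE 0.18, edgeR adjusted p = 0.0105), and MEIS2 had 31.1 and 17.9 TPM (0.77, SE 0.21, adjusted p = 0.0433). Both ranges overlapped, and both calls were lost without libraries 1 and 5, at adjusted p of 0.0523 for MEIS1 and 0.33 for MEIS2. Of single libraries, leaving out number 5 lost the call of MEIS1, and any of 16 libraries that of MEIS2, with the highest adjusted p, 0.279, without MAD library 5.

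**Figure D1:**
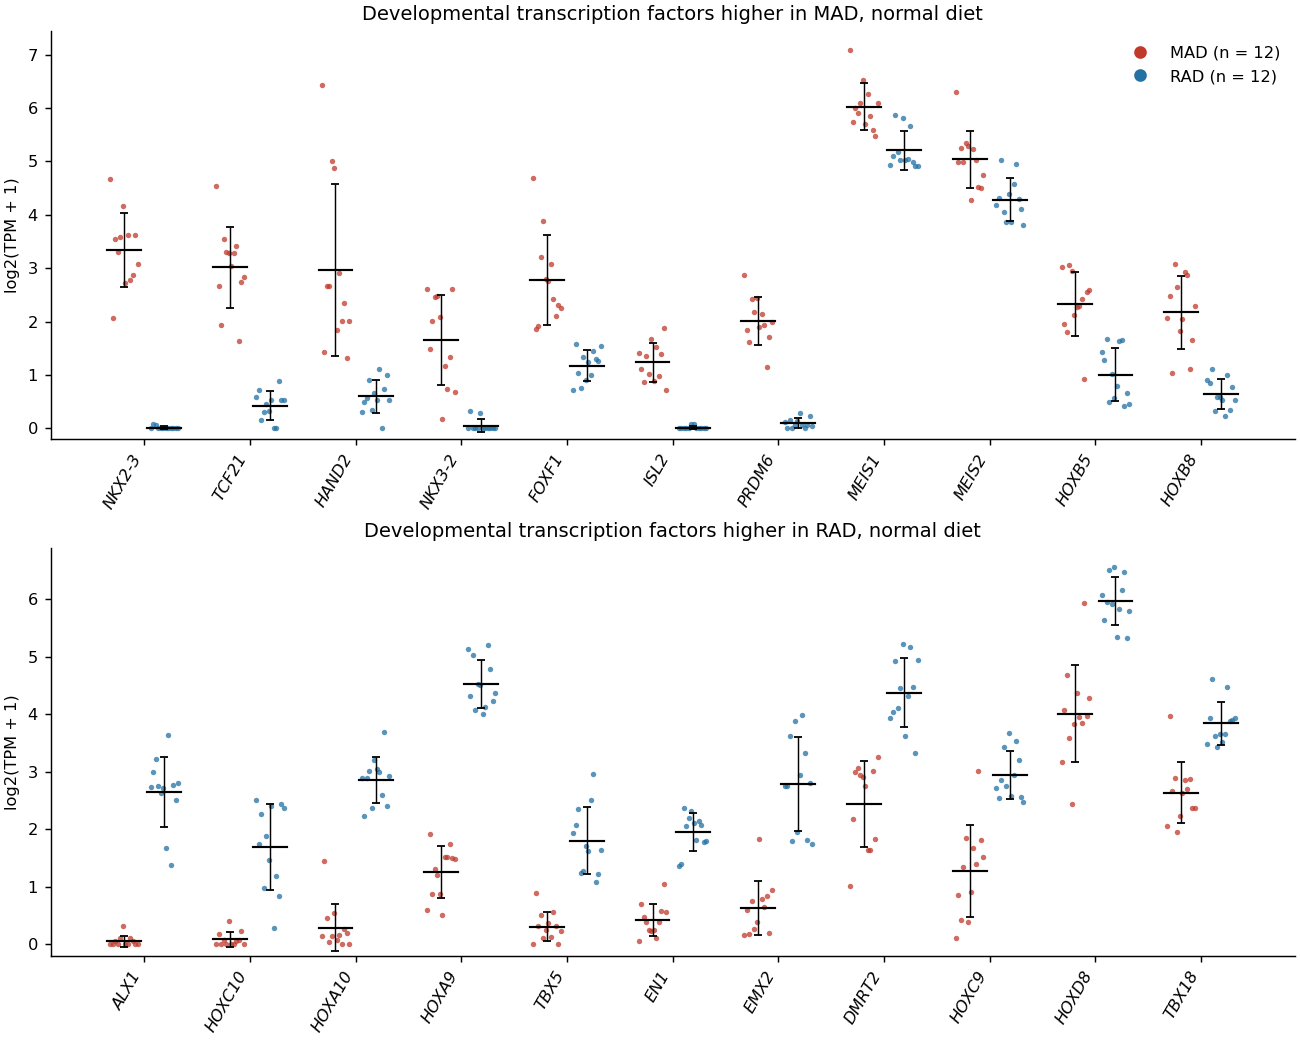
TPM of transcription factors as log2(TPM + 1) in each of the 12 MAD and 12 RAD libraries, with bars for the mean and SD over libraries; the top panel holds factors higher in MAD and the bottom panel factors higher in RAD. NKX2-3, PRDM6 and ISL2 sit near 0 in every RAD library, and ALX1 and HOXA9 are low in every MAD library.

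HOX genes went both ways. Of 24 tested HOX genes, 5 were higher in MAD and 7 in RAD, with a median log2 fold change of 0.23. Among those higher in MAD were HOXB4, HOXB5, HOXB6 and HOXB8, all of the B cluster. HOXB8 ranged from 1.06 to 7.41 TPM in MAD (median 3.53) and from 0.173 to 1.15 TPM in RAD (median 0.499), with a log2 fold change of 2.75 (SE 0.37, edgeR adjusted p = 4.3e-05). HOXB5 had medians of 4.12 and 0.875 TPM (2.11, SE 0.37, edgeR adjusted p = 0.000846). HOXB5 overlapped only through MAD library 10, at 0.899 TPM, and HOXB8 only between the lowest MAD and the highest RAD values.

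The 7 HOX genes higher in RAD were HOXA9, HOXA10, HOXC9, HOXC10, HOXD3, HOXD4 and HOXD8. HOXA9, a gene of the posterior trunk, ranged from 0.429 to 2.79 TPM in MAD (median 1.64) and from 15.1 to 35.8 TPM in RAD (median 20.6), a log2 fold change of -4.04 (SE 0.27, edgeR adjusted p = 2.46e-10). HOXA10 ranged from 0 to 1.74 TPM in MAD and from 3.71 to 11.9 TPM in RAD (-4.70, SE 0.53, adjusted p = 2e-06). Neither of these 2 overlapped. HOXC10, known from body-wall and limb fat, had medians of 0.0197 and 2.51 TPM (-5.05, SE 0.60, edgeR adjusted p = 5.84e-06), with MAD library 6 alone, at 0.325 TPM, reaching the range of RAD. HOXD8 had medians of 14.6 TPM in MAD and 59.9 TPM in RAD (-1.97, SE 0.30, edgeR adjusted p = 0.000184) and HOXC9 of 1.59 and 5.97 TPM (-2.03, SE 0.44, adjusted p = 0.00743). For both genes MAD library 10 was the highest of its depot, at 60.3 TPM for HOXD8 and 7.09 TPM for HOXC9, within the RAD range. HOXA5, HOXA7 and HOXB7 were not called, with log2 fold changes of -0.29, 0.10 and 0.37. Without MAD libraries 1 and 5, the counts for the HOX list were 3 higher in MAD and 7 higher in RAD.

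The list of subcutaneous and limb patterning factors ran the other way: of 16 tested members, 0 were higher in MAD and 6 higher in RAD in edgeR, with a median of -0.64, and the counts were the same without libraries 1 and 5. DESeq2 called 1 higher in MAD and 6 higher in RAD, and 9 of the 16 had an unadjusted p under 0.05 in edgeR. ALX1 (ENSSSCG00000036744), a homeobox factor of craniofacial mesenchyme, was listed at 0 in 7 MAD libraries and reached at most 0.244 TPM there, against 1.6 to 11.4 TPM in RAD (median 5.7). Its log2 fold change of -6.99 (SE 0.52, edgeR adjusted p = 1.31e-09) was the most negative of the named genes. With MAD at or near 0, its size too is less certain than its direction. The gap between the depots was wide, with no library of one in the range of the other.

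TBX5, which specifies the forelimb field, ranged from 0 to 0.847 TPM in MAD and from 1.11 to 6.81 TPM in RAD (log2 fold change -3.33, SE 0.48, edgeR adjusted p = 9.46e-05). EN1, a factor of the ventral limb and of dermal lineages, ranged from 0.0406 to 1.07 TPM in MAD and from 1.57 to 4.18 TPM in RAD (-3.18, SE 0.34, adjusted p = 1.19e-06). DMRT2, which acts in the somites, ranged from 1.02 to 8.58 TPM in MAD and from 9.01 to 36.3 TPM in RAD (-2.07, SE 0.31, adjusted p = 0.000138). None of these 3 overlapped between the depots. EMX2, a factor of the urogenital ridge, had medians of 0.533 and 5.87 TPM (-3.14, SE 0.43, edgeR adjusted p = 4.82e-05), and only MAD library 7, at 2.56 TPM, entered the RAD range. TBX18, a factor of epicardium and ureter, was the only member of the visceral list higher in RAD, with medians of 5.26 TPM in MAD and 12.7 TPM in RAD (-1.41, SE 0.21, edgeR adjusted p = 0.000113).

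Genes outside the lists of factors were also higher in RAD. FGF10, a growth factor of mesenchyme that acts on nearby epithelium and on preadipocytes, ranged from 0.0281 to 1.56 TPM in MAD and from 3.29 to 27 TPM in RAD (log2 fold change -3.19, SE 0.39, edgeR adjusted p = 9.65e-06). MMP27, a matrix metalloproteinase, had medians of 2 and 20 TPM (-3.21, SE 0.35, adjusted p = 1.39e-06), also without overlap. SULT1B1, a sulfotransferase, ranged from 0.617 to 7.09 TPM in MAD and from 7.29 to 19.9 TPM in RAD (-1.77, SE 0.29, adjusted p = 0.000396). COL1A2, a chain of type I collagen, had medians of 133 and 258 TPM with overlapping ranges (-1.19, SE 0.20, adjusted p = 0.000498), and was 1 of 2 genes called among 45 tested matrix genes. The other, COL12A1, was higher in MAD (0.93, SE 0.25, adjusted p = 0.0426) and was not called without libraries 1 and 5 (adjusted p = 0.377) or without any of 14 single libraries. FMO2, a flavin monooxygenase, had medians of 29.9 TPM in MAD and 72.6 TPM in RAD (-1.18, SE 0.22, edgeR adjusted p = 0.00191).

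Smooth muscle genes formed the next group that was higher in MAD. Of 21 tested members of the smooth muscle and pericyte list, 11 were higher in MAD and 0 in RAD, with a median log2 fold change of 1.11 and a range from 0.17 to 7.57. DESeq2 called 13 higher in MAD and 0 in RAD, and 16 of the 21 had an unadjusted p under 0.05 in edgeR. ACTG2, the gamma actin of enteric smooth muscle, ranged from 9.64 to 3814 TPM in MAD with a median of 35.3, and from 0.244 to 7.1 TPM in RAD with a median of 2.12. DES, the intermediate filament desmin, ranged from 13.8 to 2318 TPM in MAD (median 50.8) and from 0.492 to 3.95 TPM in RAD (median 2.33). Neither gene overlapped between the depots, while within MAD the spread was as wide as the gap: ACTG2 was at 3814 TPM in library 1, 779 in library 5, 343 in library 6 and 187 in library 8, and at or below 44.2 TPM in the other 8.

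Contractile genes with the same pattern were CNN1, MYH11 and MYLK, which encode calponin, the smooth muscle myosin heavy chain and its light chain kinase. Log2 fold changes were 7.57 (SE 1.13, edgeR adjusted p = 0.000138) for ACTG2, 6.99 (SE 0.94, 4.22e-05) for DES, 5.35 (SE 0.85, 0.000292) for CNN1, 4.70 (SE 0.78, 0.000485) for MYH11 and 3.93 (SE 0.69, 0.000924) for MYLK. KCNMB1, the beta subunit of the calcium-activated potassium channel of smooth muscle, and KCNMA1, its pore subunit, had 6.19 (SE 0.92, 0.000137) and 5.09 (SE 0.79, 0.000211). Without MAD libraries 1 and 5, 9 of the 21 were called, with a median of 0.91, and the log2 fold changes were 4.71 for ACTG2 (adjusted p = 0.000641), 4.70 for DES (3.66e-05), 3.14 for CNN1 (0.00141), 2.57 for MYH11 (0.00215) and 1.97 for MYLK (0.00503). Fewer passed within the libraries above 88%, where 4 of 21 were called.

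Other members of the list had smaller differences. TAGLN (ENSSSCG00000015073), an actin-binding protein named after its values were seen, had medians of 393 TPM in MAD and 157 TPM in RAD (log2 fold change 1.73, SE 0.40, edgeR adjusted p = 0.0149). ACTA2, the alpha actin of vascular smooth muscle, had medians of 157 and 77.7 TPM (1.11, SE 0.29, adjusted p = 0.0368). The pericyte genes RGS5 and NOTCH3 were not called, with log2 fold changes of 0.25 and 0.17. PCP4, a calmodulin-binding protein, and PDLIM3, a protein of the actin cytoskeleton, were among the most different genes outside the list, at 8.28 (SE 1.39, edgeR adjusted p = 0.000533) and 4.63 (SE 0.79, adjusted p = 0.000678). PCP4 ranged from 0.484 to 1420 TPM in MAD and from 0 to 1.82 TPM in RAD, and was highest in libraries 1, 5 and 6 too.

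**Figure D2:**
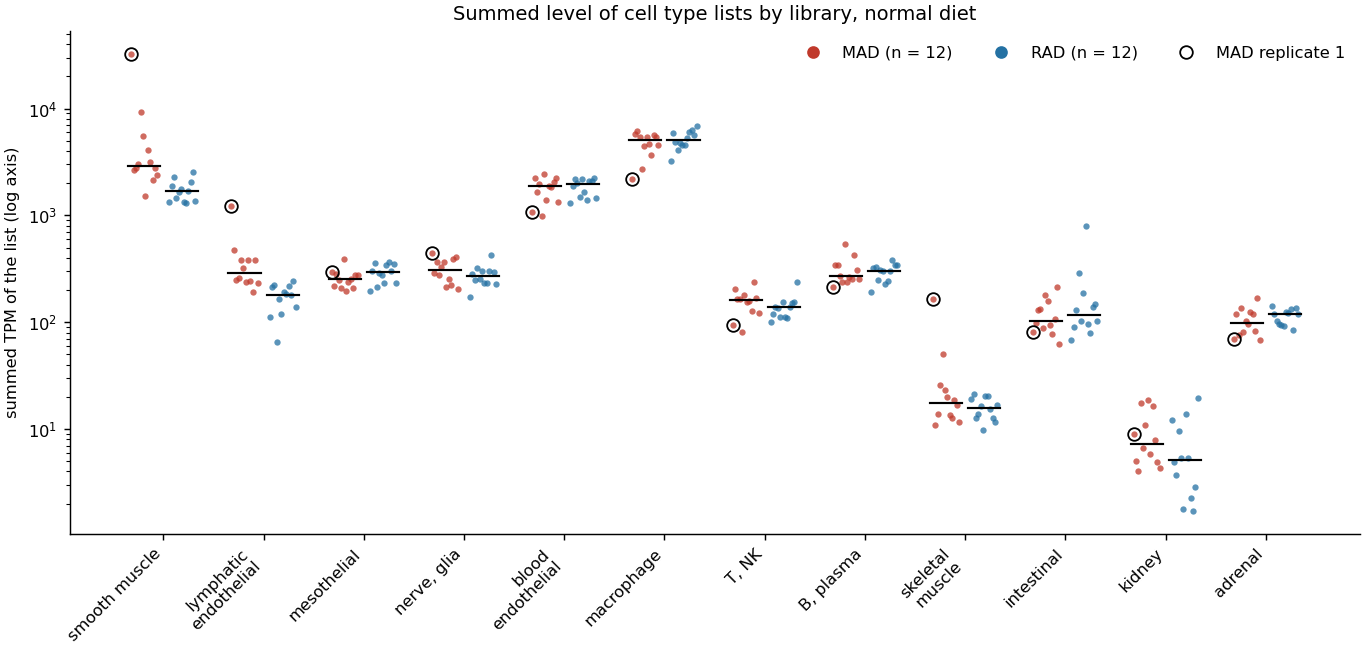
Summed TPM of the members of 12 gene lists in each MAD and RAD library on a log axis, with a bar for the median of each depot and a circle around MAD library 1. Smooth muscle genes range from 1514 to 32388 in MAD and from 1308 to 2567 in RAD, whereas the sums of macrophage and blood endothelial genes overlap widely.

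Markers of other tissues were measured beside the muscle genes. Skeletal muscle genes summed to 164 TPM in MAD library 1 and 50.2 TPM in library 5, against 10.9 to 25.7 TPM in the other MAD libraries and 9.73 to 21.5 TPM in RAD. The 1 called of 6 tested skeletal muscle genes, the creatine kinase CKM (log2 fold change 2.28, SE 0.60, edgeR adjusted p = 0.0397), was not called without these 2 libraries (0.62, adjusted p = 0.679). Of the intestinal list 4 members were tested and 0 were called, with 0 at an unadjusted p under 0.05 in edgeR and 0 called by DESeq2. The list summed to 794 TPM in RAD library 7 and to 62.3 to 287 TPM in the other 23 libraries. The epithelial genes CDX2, REG4 and TFF3, which mark gut epithelium, had a median of 0 TPM in both depots. VIP, a neuropeptide of enteric nerves, reached 22 TPM in library 1 and 13.9 TPM in library 5 and was at or below 2.65 TPM in all others. VIP was chosen after its values were seen, and was not called without the 2 libraries (log2 fold change 1.03, adjusted p = 0.393). Nerve and glial genes likewise had 2 of 12 called (NCAM1 and NEFL) with all libraries and 0 without libraries 1 and 5. Pancreatic genes summed to 51.4 TPM in library 1 and 50.2 TPM in library 5, against at most 23.7 TPM in the other MAD libraries and 24.1 TPM in RAD, and 0 of the 1 tested were called. Much of this was SST, the hormone somatostatin, which nerves and endocrine cells of gut and pancreas make. SST was at 48.6 and 25.1 TPM in libraries 1 and 5 and at or below 4.94 TPM in all others. The colipase CLPS was at 21.3 TPM in MAD library 5, but it did not set these MAD libraries apart. It was at 0 TPM in MAD library 1 and at 15.7 TPM in RAD library 5 and 12.2 TPM in RAD library 12. Every library with more than 0.529 TPM of CLPS belonged to the set with the lower share of PCGs. INS and PTF1A of the pancreatic list were at 0 in every library, while CELA2A of that list was found in every library, at 1.44 to 16.2 TPM. The part of gut wall or of vessels in these differences was not tested.

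Lymphatic endothelial genes were higher in MAD in 6 of the 15 tested and higher in RAD in 0, with a median log2 fold change of 1.36 and 6 called without libraries 1 and 5. DESeq2 called 7 and 0, and 11 of the 15 had an unadjusted p under 0.05 in edgeR. FLT4, the receptor of the lymphatic growth factor VEGFC, ranged from 3.72 to 21.4 TPM in MAD and from 0.423 to 2.35 TPM in RAD, without overlap (2.46, SE 0.29, edgeR adjusted p = 5.84e-06). TBX1, a factor needed for the growth of lymphatic vessels, ranged from 0.889 to 6.47 TPM in MAD and from 0 to 0.315 TPM in RAD, also without overlap (4.37, SE 0.49, adjusted p = 2e-06). CCL21, the chemokine with which lymphatic vessels draw in dendritic cells and T cells, had medians of 64.5 and 10.8 TPM (3.32, SE 0.65, adjusted p = 0.0029). Its highest value, 659 TPM, was in MAD library 1, and without libraries 1 and 5 the log2 fold change was 2.36 (adjusted p = 0.0139).

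MMRN1 and RELN, which lymphatic endothelium secretes, had log2 fold changes of 2.81 (SE 0.44, edgeR adjusted p = 0.000238) and 2.61 (SE 0.38, adjusted p = 0.000115). VEGFD, a ligand of FLT4, had medians of 34.2 and 16.7 TPM (0.91, SE 0.20, edgeR adjusted p = 0.0105). PROX1, the master factor of lymphatic identity, had medians of 5.44 TPM in MAD and 1.07 TPM in RAD, but RAD library 7, at 15.5 TPM, exceeded every MAD library, and the gene was not called (1.61, SE 0.61, edgeR adjusted p = 0.23). Without that library, the one with the high apolipoproteins, PROX1 was called (2.18, SE 0.39, edgeR adjusted p = 0.0015). The part of other tissue in the value of library 7 was not tested. LYVE1, a receptor shared by lymphatic vessels and macrophages, had medians of 50.2 and 54.2 TPM. Of 27 blood endothelial genes 0 were called in edgeR and DESeq2 called 0. An unadjusted p under 0.05 was found for 3 of them, against 1664 of all 13742 PCGs tested.

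Of 10 tested mesothelial markers, 3 were higher in MAD and 0 in RAD, with a median of 0.59. They were GPM6A (log2 fold change 3.67, SE 0.69, edgeR adjusted p = 0.0021), PKHD1L1 (4.48, SE 0.82, adjusted p = 0.00142) and RSPO1 (2.80, SE 0.55, adjusted p = 0.00291), of which RSPO1 did not overlap, at 2.31 to 18.2 TPM in MAD and 0 to 1.92 TPM in RAD. Defining markers of the mesothelium were low: UPK1B had medians of 1.43 and 0.237 TPM and CALB2 of 0.462 and 0 TPM, and KRT8 was not called (1.57, adjusted p = 0.428). The list summed to 197 to 389 TPM in MAD (median 251) and 194 to 365 TPM in RAD (median 296), so the median sum was lower in MAD. Without MAD libraries 1 and 5 the median log2 fold change of the list was 0.33, with 3 still called. Of the WNT, BMP and hedgehog genes 4 of 38 were higher in MAD and 2 in RAD, with a median of 0.29. Without MAD libraries 1 and 5 these counts were 3 and 2. GREM1, a secreted BMP antagonist, ranged from 32.2 to 293 TPM in MAD and from 1.63 to 30.4 TPM in RAD, without overlap (3.36, SE 0.46, edgeR adjusted p = 4.82e-05). RSPO3, which strengthens WNT signals, had medians of 23.3 and 6.77 TPM (1.81, SE 0.32, adjusted p = 0.00103). In RAD, WNT2 (-1.70, SE 0.36, edgeR adjusted p = 0.0061) and SFRP4, a WNT inhibitor (-1.31, SE 0.31, adjusted p = 0.0168), were higher. The call of SFRP4 was lost without RAD library 9 or 11 (adjusted p up to 0.0631).

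**Figure D3:**
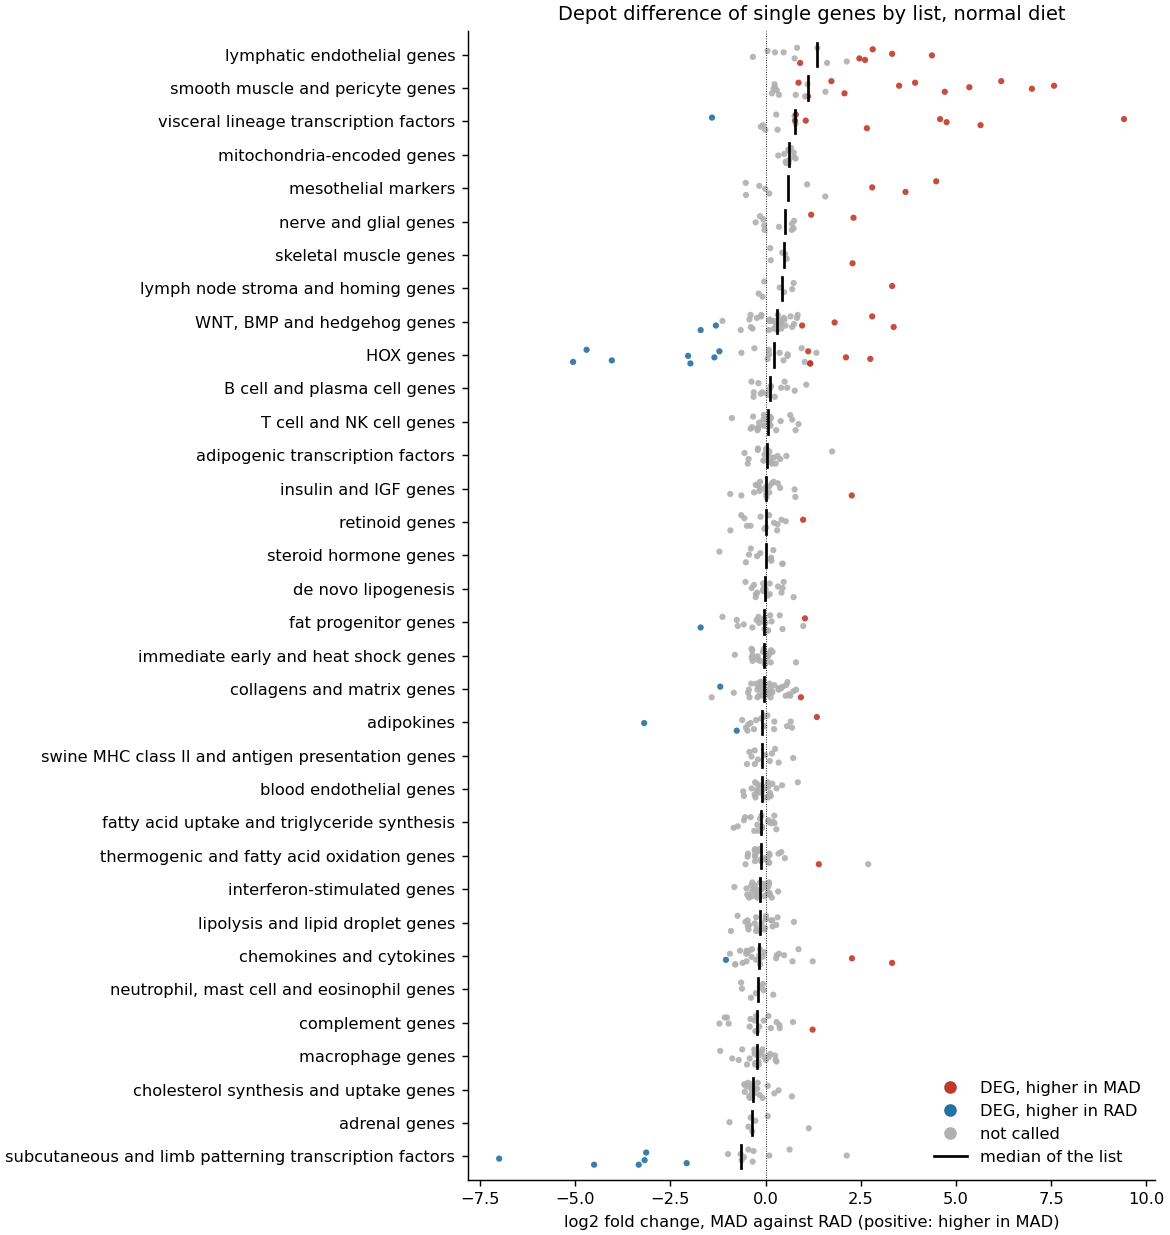
Log2 fold change of MAD against RAD for each tested member of the gene lists, with DEGs in colour and a tick for the median of each list. Smooth muscle and lymphatic genes lie mostly above 0, subcutaneous and limb patterning factors mostly below, and the lipid lists centre near 0.

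Among single genes of hormone and nutrient signalling, GRB14, an adaptor that blocks the insulin receptor, was the 1 called of 21 tested insulin and IGF genes. It ranged from 3.51 to 12.9 TPM in MAD and from 0.272 to 7.49 TPM in RAD (log2 fold change 2.26, SE 0.41, edgeR adjusted p = 0.00122). LEPR, the leptin receptor, had medians of 5.26 and 0.855 TPM (2.72, SE 0.47, adjusted p = 0.000723), and MGP, an inhibitor of calcification, had 954 and 461 TPM (1.22, SE 0.24, adjusted p = 0.00312), both chosen after their values were seen. ALDH1A2, which makes retinoic acid, was the 1 called of 15 retinoid genes, with medians of 38.9 and 16.6 TPM (0.99, SE 0.22, edgeR adjusted p = 0.0119). MYMK, known for the fusion of muscle cells, ranged from 0.631 to 13.8 TPM in MAD and from 0 to 1.03 TPM in RAD (4.49, SE 0.64, adjusted p = 8.5e-05). Unlike the contractile genes, MYMK was lowest in MAD libraries 1 and 5.

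Most lists of adipocyte function had no call, where 2.2% of all PCGs tested were called. At that share a list of this size can hold none. In edgeR 0 were called of 23 adipogenic transcription factors, 19 genes of lipogenesis, 19 of fatty acid uptake and triglyceride synthesis and 24 of lipolysis and lipid droplets. At an unadjusted p under 0.05 these lists held 2, 2, 2 and 5 genes, against 1664 of all 13742 PCGs tested. DESeq2 called 1, 0, 1 and 0 in these lists. Their median log2 fold changes were 0.03, -0.03, -0.11 and -0.15. PPARG, the master factor of adipogenesis, had medians of 247 TPM in MAD and 246 TPM in RAD (-0.47, SE 0.16, edgeR adjusted p = 0.159). FABP4, the fatty acid carrier of adipocytes, ranged from 1600 to 10481 TPM in MAD and from 7071 to 17936 TPM in RAD (-0.73, SE 0.23, adjusted p = 0.114). LEP, the hormone leptin, had medians of 78.3 and 129 TPM (-0.61, SE 0.29, adjusted p = 0.393). Of 20 adipokines, 1 was higher in MAD and 2 in RAD: FGF1, a growth factor that adipose tissue secretes, had medians of 47.1 and 15.5 TPM (1.35, SE 0.28, edgeR adjusted p = 0.0049), and FGF10, given above, and C1QTNF1 (-0.76, SE 0.18, adjusted p = 0.02) were higher in RAD. Of 25 thermogenic and fatty acid oxidation genes the creatine kinase CKB was called (1.40, SE 0.35, edgeR adjusted p = 0.0262). C1QTNF1 and CKB were not called without libraries 1 and 5 (adjusted p of 0.103 and 0.335), and FGF1 still was (0.00262).

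Of the lists of immune cells, macrophages had 0 of 27 called in edgeR, T and NK cells 0 of 24 and B and plasma cells 0 of 17. With 2.2% of all PCGs tested called, lists of this size can hold none. At an unadjusted p under 0.05 these immune lists held 2, 4 and 2 genes, against 1664 of all 13742 PCGs tested. DESeq2 called 0, 1 and 0 in these lists. Secreted immune proteins held some calls. Of 29 chemokines and cytokines, CCL21 and CCL26 were higher in MAD and CCL4 in RAD, of 19 complement genes C7 was higher in MAD, and of 8 genes of lymph node stroma and homing CCL21 was. CCL26, which attracts eosinophils, had medians of 190 and 27.5 TPM (2.27, SE 0.47, edgeR adjusted p = 0.00492), and C7, a part of the membrane attack complex, 67.9 and 27.4 TPM (1.23, SE 0.32, adjusted p = 0.035). Neither CCL26 nor C7 was called without libraries 1 and 5, at adjusted p of 0.132 and 0.322, and C7 lost its call without any of 10 single libraries. A p above the limit does not show that levels were alike.

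The A-B index came from 12 and 12 Hi-C samples over 113298 bins, and 2 of these samples, MAD 7 and MAD 10, went against their label in part. The samples were scored on bins called in other pigs. Over the 236 bins higher in MAD and 972 higher in RAD in the WL pigs, the mean index of sample 7 over the first set minus that over the second was -1.98, while the other 11 MAD samples ranged from -0.952 to 0.101 and the RAD samples from -2.54 to -1.68. Over the bins of WG samples 7 and 10 had -0.911 and -0.416, below every RAD sample, while the other MAD samples had 1.39 to 2.78 and the RAD samples -0.407 to 1.30. On the WL bins sample 10 had -0.353, within the range of the other MAD samples. At the NKX2-3 bin, however, sample 7 had 2.26, within the MAD range. The RNA library of the same number had 5.57 TPM of NKX2-3 and 0 of ALX1. Counts of called bins and of switches are given with all samples, without sample 7 and without both. Values of some runs are also given without sample 7, while those of single bins are given with all samples only.

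Bins were called at an index difference above 0.75 with an adjusted p below 0.05 in limma. With all samples 4278 bins (3.78%) had a higher index in MAD and 1580 (1.39%) in RAD, so 73.0% of called bins were higher in MAD. When the samples were first quantile normalized to each other, the share was 51.8%, and the median difference over all bins went from 0.0658 to 0.00487. Most bins did not change compartment: of those higher in MAD 3709 had a negative mean index in both depots, and of those higher in RAD 1095 had a positive one in both. Without sample 7, 6359 bins were higher in MAD and 2359 in RAD, among them 4254 of the 4278 and 1556 of the 1580. Without samples 7 and 10 the counts were 8134 and 2825, with 4191 and 1494 of the first ones among them. The sign of the difference was the same in the WG pigs for 96.6% of the bins higher in MAD, against 51.0% of all bins, and for 97.8% of those higher in RAD, against 49.0%. In the WL pigs these shares were 74.4% against 35.7% and 91.8% against 64.3%. True switches, in which over 80% of the samples of each depot were in opposite compartments, covered 1.52 Mb (76 bins) for A in MAD and 1.02 Mb (51 bins) for A in RAD. Without sample 7 they were 154 and 93 bins, and without both 119 and 53. Of 7 tested genes that start in switch bins none was a DEG, among them the axon guidance factor NTN1 (log2 fold change 0.43, edgeR adjusted p = 0.371).

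The longest of 2772 runs of called bins lay at chr3:74200001-76360000 and held the start of MEIS1. Over its 108 bins the mean index ranged from -3.57 to -0.16 in MAD (median -1.62) and from -3.63 to -2.06 in RAD (median -3.28), a difference of 1.54 (SE 0.29), or 1.71 (SE 0.25) without sample 7. Sample 7 was the lowest of MAD and sample 10 the next, at -2.82, also within the RAD range. The depots overlapped with and without sample 7, and not without both, where the difference was 1.84 (SE 0.22). In the WG and WL pigs the region differed by 0.92 (SE 0.11) and 0.71 (SE 0.10), each with a permutation p of 2e-05, the smallest that the permutations can give, and an adjusted p of 4e-05 over 20 tests. The second run, at chr6:45600001-46700000, held 9 tested zinc finger genes, none of them a DEG, and differed by 1.19 (SE 0.25), or 1.33 without sample 7. A run at chr17:21700001-22500000 held ISM1, a secreted protein, which was 2.05 higher on the log2 scale in MAD (SE 0.28, edgeR adjusted p = 4.73e-05) and did not overlap, at 8.48 to 24.6 TPM against 0.812 to 6.19 TPM. Its index differed by 1.13 (SE 0.16).

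Toward RAD, the run with the largest difference among the 5 longest was at chr4:54920001-55320000 and held FABP4, FABP5, PMP2 and IMPA1. Its 20 bins ranged from -1.47 to 1.82 in MAD (median 0.26) and from 1.41 to 2.55 in RAD (median 1.78). The difference was -1.55 (SE 0.24), and without sample 7, the highest of MAD, it was -1.69 and the depots did not overlap. WG and WL pigs had -0.84 and -0.82 there, with permutation p of 2e-05 and 0.00024 (adjusted p = 4e-05 and 0.000369). None of the 4 genes was a DEG, and FABP4 had the log2 fold change of -0.73 given above. At PPARG the start bin had a mean index of 3.01 in MAD and 3.93 in RAD (difference -0.93, SE 0.29, limma adjusted p = 0.0439). All 10 of the longest runs, 5 in each direction, differed in the same direction in WG and in WL, with adjusted permutation p of at most 0.000182 and 0.0178. Across the 24 NC samples each of the 10 overlapped between the depots. Of them 4 did not without sample 7, and 8 did not without samples 7 and 10. The runs were chosen on these NC samples, and sample 7 was the MAD sample nearest RAD in each of the 10. Less overlap without it thus follows from the choice and is no test of the depots.

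**Figure D4:**
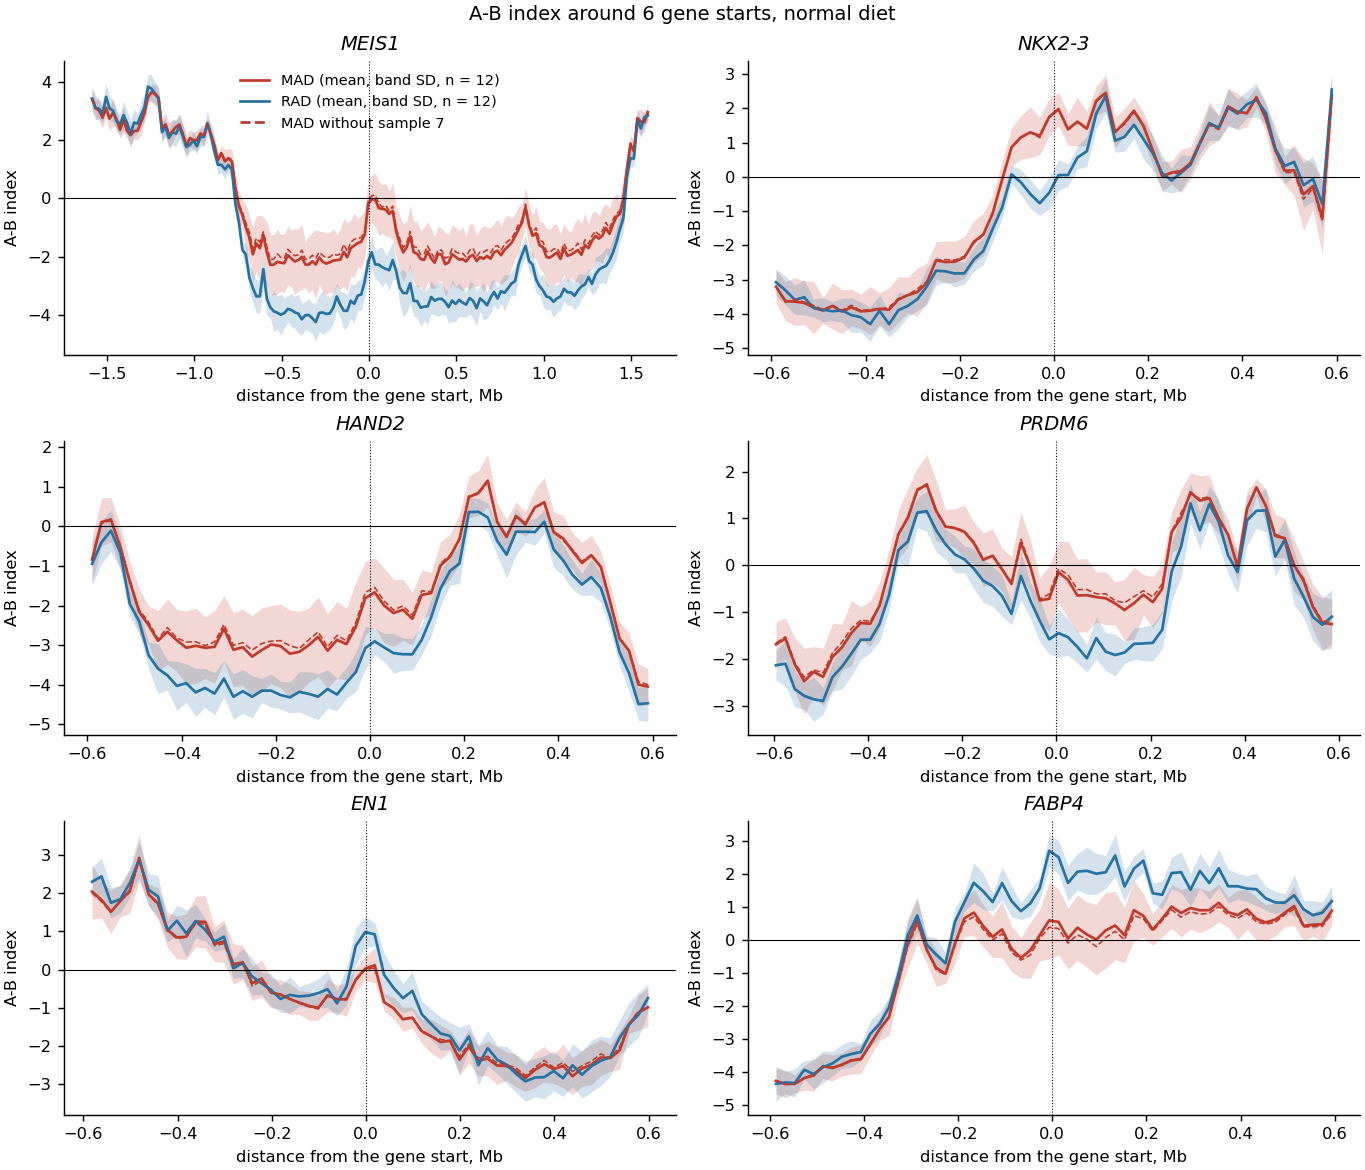
Mean A-B index (no unit) with a band for the SD over 12 samples in MAD and RAD, against the distance in Mb from the start of MEIS1, NKX2-3, HAND2, PRDM6, EN1 and FABP4; the dashed line is MAD without sample 7. The curves part at each start, with MAD above RAD at MEIS1, NKX2-3, HAND2 and PRDM6 and below it at EN1 and FABP4.

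Genes and bins were then joined at the gene start. Of the 10297 tested PCGs with a start bin, 116 (1.13%) lay in a bin higher in MAD and 102 (0.991%) in a bin higher in RAD. Of 194 DEGs higher in MAD 23 (11.9%) had a bin that was higher in MAD and 0 one higher in RAD, and of 56 DEGs higher in RAD 4 (7.14%) had a bin higher in RAD and 1 one higher in MAD. Without sample 7 the counts in the same direction were 25 and 4, and without samples 7 and 10 they were 35 and 4. NKX2-3 was the clearest case: its bin had a mean index of 1.98 (0.94 to 2.52) in MAD and 0.05 (-0.62 to 0.70) in RAD, a difference of 1.93 with no overlap (limma adjusted p = 4.98e-06). The other pigs showed 1.86 in WG and 1.68 in WL. At MEIS1 the bin differed by 1.99 (limma adjusted p = 0.000337), at PRDM6 by 1.30 (0.00195), at HAND2 by 1.24 (0.00533) and at GREM1 by 0.80. SEMA3D, a guidance factor (1.39, 0.000751), ISM1 (1.37, 0.00173) and SPON1, a matrix protein (1.33, 0.00169), also had bins higher in MAD.

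EN1 stood on the side of RAD, with a mean index of 0.03 in MAD and 0.98 in RAD (difference -0.96, limma adjusted p = 0.00106) and of -0.72 in WG and -0.98 in WL. FMO2 (-1.02, adjusted p = 0.00254), CCL4, a chemokine (-1.06, adjusted p = 0.0458), and RASSF6 (-0.82, adjusted p = 0.00897) were the other 3. The RNA of CCL4 had medians of 6.90 TPM in MAD and 14.3 TPM in RAD (log2 fold change -1.04, SE 0.28, edgeR adjusted p = 0.0426). Its call was lost without any of 14 single libraries, with an adjusted p of 0.123 without MAD library 5, and without libraries 1 and 5 together (0.161). COL1A2 went the other way, with more RNA in RAD and an index of 0.34 in MAD and -0.61 in RAD (difference 0.95, limma adjusted p = 0.00878). Most of the factors with the widest gaps in RNA had no called bin at this scale. Among them were TCF21 (difference 0.30), ALX1 (0.14), ISL2 (0.00) and HOXD8 (-0.41, limma adjusted p = 0.0769), and HOXA9, ACTG2, DES and MYH11 were not called either.

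H3K27ac, a histone mark of active enhancers and promoters, was given as regions called on merged reads of 1 MAD sample and 2 RAD samples, so that no spread between samples can be given. The 20646 regions of MAD covered 416 Mb and the 20732 of RAD 465 Mb. Within 20 kb of the called HOX and patterning genes with a position, more was covered in the depot with more RNA in 8 of 12 genes higher in MAD and in 11 of 13 higher in RAD, and 2 of each were equal. Over the 10297 tested PCGs with a start bin, 36.3% had more covered in MAD, 56.0% more in RAD and 7.67% were equal. Of all 194 DEGs higher in MAD with a position, 49.0% had more covered in MAD and 42.3% more in RAD. Of the 56 higher in RAD, 57.1% had more covered in RAD, near the share over all PCGs. The HOX genes counted here shared 1 region per cluster and depot in the A, B and C clusters, so they are not separate cases. NKX2-3 had 35 kb covered in MAD and 0.599 kb in RAD, HAND2 30.8 and 4.80 kb, and MEIS2 144 and 32.8 kb. EN1 and EMX2 had 0 kb in MAD and 21.4 and 27.8 kb in RAD, and HOXA9 had 19.7 and 43.9 kb. FOXF1 and HOXB8 were the exceptions, with 9.20 kb in MAD against 34.2 kb in RAD for FOXF1 and 28 against 35.8 kb for HOXB8.

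The same contrast was made in the other pigs to see how far it held under other diets. Of 238 DEGs higher in MAD in NC, 174 had the same call in WG (73.1%, and 35.2% of the 495 DEGs there) and 0 the opposite. Of the 65 higher in RAD 53 did (81.5%, and 22.1% of 240). The DEGs of WG were 3.65% and 1.77% of the PCGs tested. In WL 112 (47.1%, and 59.6% of 188) and 30 (46.2%, and 49.2% of 61) had the same call, from 1.35% and 0.438% called there, and 0 had the opposite. NKX2-3 had log2 fold changes of 8.03 in WG and 8.61 in WL, ALX1 of -7.48 and -7.38, and HOXA9 of -2.43 and -2.85. Smooth muscle genes were called in 9 of 21 in WG and in 4 in WL, with medians of 0.45 and 0.50. For single genes the difference was smaller in WG than in NC: ACTG2 had 2.97 in WG, DES 3.49, CNN1 1.70 and MYH11 1.30.

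The difference between NC and WG itself was tested as an interaction of depot and diet. It passed in 86 genes, with 78 (0.556%) further toward RAD and 8 (0.057%) further toward MAD in WG. Of the 86, 49 were higher in MAD in NC and less so in WG, and 27 of these 49 were still called higher in MAD in WG. These counts rested on MAD libraries 1 and 5. Without library 1, 30 genes passed, and without library 5, 27 passed. Without both edgeR called 0, with 466 of 14106 tested genes at an unadjusted p under 0.05, against 679 of 14024 with all libraries. The 466 are fewer than the share of 0.05 that arises where no gene differs. Of the smooth muscle list 11 of 21 passed with all libraries, 7 without library 1, 6 without library 5 and 0 without both. DESeq2 was not run on the interaction.

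**Figure D5:**
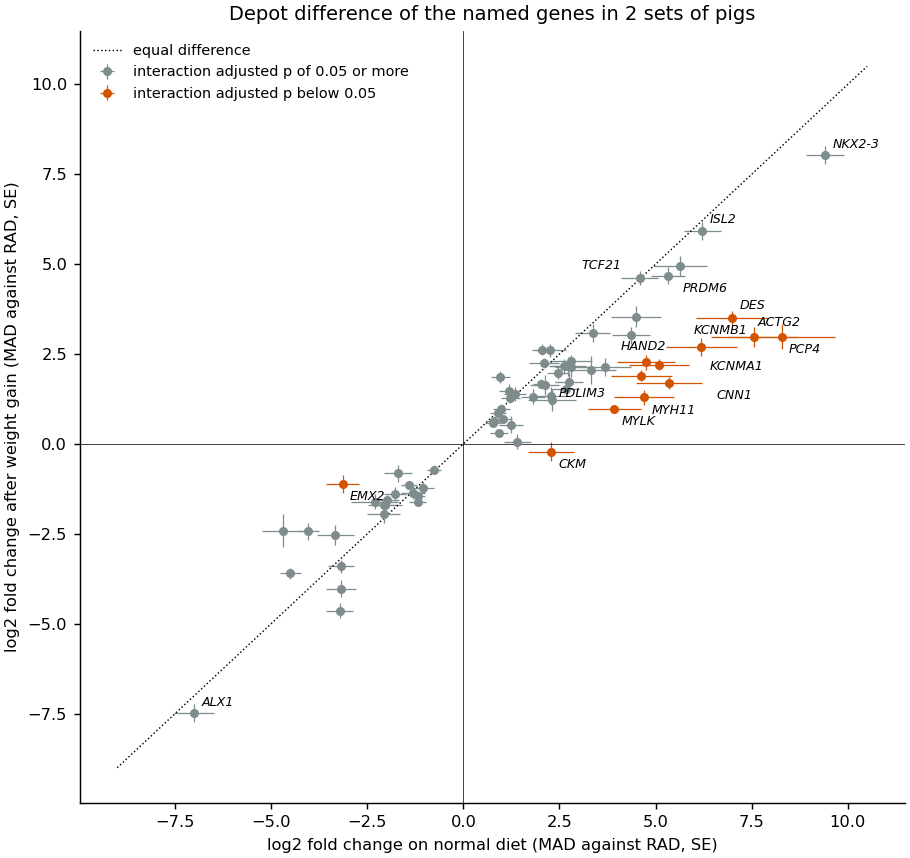
Log2 fold change of MAD against RAD in WG against that in NC for the named DEGs, with bars for the SE; genes that passed the interaction test are orange, and the dotted line marks equal values. Smooth muscle genes such as ACTG2 and MYH11 lie below the line in WG, and NKX2-3, TCF21 and ALX1 lie far from 0 on both axes.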

How the data were processed

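Per the labels and the methods, RNA was depleted of ribosomal RNA and sequenced by strand. The authors quantified it with kallisto 0.43.0 and tximport and deposited expected counts and TPM of genes. Hi-C matrices were balanced by the Knight-Ruiz method and normalized between samples with BNBC by the authors, who deposited the A-B index, a score per 20-kb bin. The deposited H3K27ac signal of enhancer regions came from BWA 0.7.15, SAMtools 1.3.1, SICER and ROSE. Gene positions and promoters were taken from RefSeq (Sscrofa11.1). Bins ended within 1 bin of the RefSeq chromosome length for 18 of 18 autosomes. Of 21280 PCGs, 14821 had a symbol and 13562 a position. Each table held 9 columns that matched no sample, which were not used.

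Counts were rounded, and PCGs were tested where at least 80% of the libraries of a depot exceeded 0.5 TPM, with edgeR 4.0.16 (TMM, quasi-likelihood) with the library set as a term, in R 4.3.3. Bins were tested with limma 3.58.1, and runs in WG and WL with two-sided permutation tests of 100000 permutations. P-values were adjusted by Benjamini-Hochberg over all features. DESeq2 1.42.0, other filters, other terms, the replicate block, and leaving out libraries were alternatives. On simulated data, 63 of 100 genes changed by 1 on the log2 scale and 95 of 100 changed by 2 were recovered, with 4 false calls among 13742 genes, in the expression contrast. For the index, 185 of 200 bins changed by 1.5 were recovered, with 7 false calls among 113298. Genes, bins and samples were drawn independently there, without outlying samples or a shift shared by bins. These false calls therefore do not measure those in the real data. The index comes without contacts per bin, so its precision rests on the spread between samples.

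Members and lists were chosen with earlier results of these data known. Named were the 12 DEGs with the largest fold change in each direction (mean TPM of at least 5 in the higher depot, same direction in both library sets), up to 6 DEGs of each of 37 lists with members of interest that were not called, the 6 DEGs in each direction with the largest index difference in the same direction, and the 5 longest runs of bins in each direction. Some genes and sequences that this rule takes in are not reported here.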

Additional observations from a re-analysis of the deposited data

Results flagged for a closer look

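A depot difference that itself differed between NC and WG, by edgeR's test of the interaction of depot and diet, drew attention to 13 of the genes named above. The values here are the log2 difference of MAD against RAD in WG minus that in NC, from different pigs. For genes of smooth muscle they were -5.182 for PCP4, -4.49 for ACTG2, -3.582 for CNN1, -3.478 for DES, -3.412 for KCNMB1, -3.381 for MYH11, -2.896 for MYLK, -2.84 for KCNMA1 and -2.651 for PDLIM3. HAND2 had -2.484, the skeletal muscle kinase CKM -2.46 and the neuropeptide VIP -2.353. EMX2 had 2.083, its deficit in MAD being smaller in WG.

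MAD libraries 1 and 5 held the highest values of the muscle genes and of VIP. Without both, no gene passed, and the values were -1.41 for PCP4, -1.47 for ACTG2, -1.27 for CNN1, -1.20 for DES, -1.34 for KCNMB1, -1.23 for MYH11, -0.88 for MYLK, -0.76 for KCNMA1, -0.80 for PDLIM3, -0.96 for HAND2, -0.78 for CKM, -0.56 for VIP and 1.86 for EMX2. Their adjusted p lay between 0.753 and 1. The difference within NC was still called without these libraries for 11 of the 13, all but CKM and VIP.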

How the results depend on the processing

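The 303 DEGs became 115 with only libraries above 88%, 24 with only those below, 191 with the replicate block and the set term (156 shared), 166 without MAD libraries 1 and 5, and 180 to 377 with 1 library left out. The 86 interaction genes became 40 above 88%, 27 to 30 without MAD library 5 or 1, and 0 without both. The 5858 called bins became 3820 after quantile normalization, 10902 at a difference above 0.5, 2149 at an adjusted p below 0.01, 4279 to 8718 with 1 sample left out, and 10959 without MAD samples 7 and 10. The 127 switch bins became 477 at limits of 70% and 30% and 247 without MAD sample 7. No named DEG reversed its direction where it was tested, and NKX3-2 was not tested in the fit below 88%. DESeq2 (434 DEGs), no filter on TPM (403), no set term (331) and the share of PCGs as a term (294) moved the count by less than 1.5 times.

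Of 73 named DEGs, 58 passed with every library left out in turn, 73 with DESeq2, 43 above 88% and 16 below. The 4 depots were taken from each carcass, but the labels do not tie a replicate number to a pig. The main fit was therefore unpaired. Same-numbered libraries of the depots correlated above 0.1 in 11 of 12 pairs in expression and in 7 of 12 in the index. In 5 and 2 cases they correlated best with their own number. In expression every same-number correlation exceeded the median with other numbers, from 0.71 against -0.25 for number 10 to -0.16 against -0.20 for number 3. These values in expression did not take out the library set. With the set taken out, same-number correlations went from 0.64 for number 10 to -0.35 for number 3, with 0.03 for number 4 and 0.18 for number 5. If the number marks the pig, the fits with the replicate block are those that take up the pairing. With the replicate block and the set term, 56 of the 73 passed, and with the block alone 69 did (393 DEGs). Among those not called with the block and the set term were C1QTNF1, C7, CCL4, CKB, CKM, COL12A1, FOXP2, HOXC9, MEIS1, MEIS2, MYH11, MYLK, NCAM1, NEFL, SEMA3D and VIP. Alternatives without MAD sample 7, samples 7 and 10, or MAD libraries 1 and 5 were chosen after seeing the data. Library set and depot were unbalanced, and the fit below 88% held 2 MAD libraries. The cause of these changes was not tested.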
